A study of Mus musculus with 21 samples.

Results

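One week of high-fat diet after chow is the comparison of RC → HFD with RC NoDS, read here as RC → HFD over RC NoDS. Its members were the 6 RC → HFD and 5 RC NoDS libraries, identified by the diet in each sample's name, which makes 11 of the 21 libraries of the series. A gene was kept where its mean count across those 21 libraries was 50 or more, which left 12768 of 21654 genes. Each library held polyA RNA from punches of the circumventricular hypothalamus, with tissue of 2 mice pooled.

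All mice were male C57/BL6 animals (C57/B6J in the growth protocol), obtained at 12 to 14 weeks of age. RC NoDS mice ate regular chow throughout, and RC → HFD mice ate chow and then high-fat diet for the last week. HFD → RC mice (5 libraries) went from chronic high-fat diet to chow for the last week, and HFD NoDS mice (5 libraries) stayed on high-fat diet. Every mouse was kept awake with unfamiliar objects for 3 hours before tissue was taken at ZT6, 6 hours into the light phase, so no group shows the undisturbed state. Replicates were separate pools of mice. Since a library is a mean of 2 animals, the spread between libraries understates that between mice.

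The arcuate nucleus of the hypothalamus reads hormones that report energy stores. Its AgRP neurons release AgRP and NPY, which stimulate feeding, while its POMC neurons release melanocortins, which restrain it. Tanycytes, the ependymal cells that line the floor of the ventricle beside these neurons, pass hormones and nutrients between blood, cerebrospinal fluid and the nucleus.

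Reads on genes summed to between 16383073 and 16390551 in each of the 11 libraries, since the authors re-sampled all libraries to a common depth. Equal totals did not mean equal complexity. Among 3116 weakly expressed genes, with means of 5 to 50 reads, 1.12%, 3.63%, 2.34%, 7.22% and 1.8% had a count of 0 in the RC NoDS libraries 1, 2, 3, 5 and 6. In RC → HFD the share was 3.4%, 2.31% and 6.58% in libraries 7, 8 and 9, and 19.2%, 17.6% and 22.4% in libraries 10, 11 and 12. The last 3 stand apart from all other libraries of both groups. The group means were 3.22% ± 2.42 (SD, n = 5) and 11.9% ± 8.82 (SD, n = 6), a difference of 8.69 percentage points (exact two-sided permutation test, p = 0.0887; the smallest p this test can give is 0.00216). The difference depended on the window, at 13 points for genes with means of 5 to 20 reads and 2.12 for those with 20 to 50. Over 5 to 50 reads the share was 5.68% to 31.9% in HFD → RC libraries and 7.7% to 32.9% in HFD NoDS libraries. Libraries of those groups were left out only singly. The called genes are given with and without libraries 10, 11 and 12, as are the lists and other genes for which this is stated.

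Markers of the region were present in every library. Pomc counts lay between 5012 and 9562 in RC NoDS and between 5919 and 11263 in RC → HFD, and those of Nr5a1, which marks the ventromedial nucleus, between 701 and 1388 and between 981 and 1829. Rax, a tanycyte gene, had 243 to 447 and 120 to 408 reads. Avp and Oxt were abundant, with medians of 11242 and 5123 reads in RC NoDS, whereas Crh had at most 38 reads in any of the 11 libraries. Markers of tissue beside the target were also counted. Gh and Prl, hormones of the pituitary, had medians of 2 and 1 reads in RC NoDS and of 1 and 0 in RC → HFD, but reached 184 and 154 reads in a single RC NoDS library and 480 and 841 in a single RC → HFD library. Hcrt and Pmch, made in the lateral hypothalamus, were counted in every library.

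A total of 5 of the 12768 genes tested passed an adjusted p of 0.15 (edgeR quasi-likelihood test, Benjamini-Hochberg adjustment over all genes tested), which is 0.0392%. Npy, Agrp and Rbm3 fell (0.0235% of genes tested) and Trh and Kif5a rose (0.0157%). The number called was 9 without RC NoDS library 3, 8 without HFD → RC library 13 or 16, and 11 without HFD NoDS library 20. Without adjustment, 831 genes (6.51%) had a p under 0.05, of which 490 (3.84%) were higher and 341 (2.67%) lower in RC → HFD, where 638.4 would be reached if no gene differed. The median log2 fold change over all genes tested was −9e-04, and 38 genes had a log2 fold change beyond 1 in either direction. For 149 genes (1.17%) all RC → HFD libraries lay above or all lay below every RC NoDS library, 59 higher (0.462%) and 90 lower (0.705%), and the 5 called genes were among them.

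Npy (ENSMUSG00000029819, NCBIM37/mm9 chr6:49772709-49779506, plus strand) encodes neuropeptide Y. Its counts were 5015, 4378, 4258, 5713 and 4745 in the RC NoDS libraries, and ran from 1390 to 2295 with a median of 1937 in RC → HFD. Every RC → HFD library was below every RC NoDS library, with a wide gap between the groups. The log2 fold change was −1.31 (SE 0.151, edgeR adjusted p = 2.36e-05), with means of 4822 ± 581.4 (SD, n = 5) and 1907 ± 321.9 reads (SD, n = 6).

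Agrp (ENSMUSG00000005705, chr8:108090600-108092198, minus strand), the antagonist of melanocortin receptors made by the same neurons, had 1289, 1139, 1212, 1442 and 1230 reads in RC NoDS. In RC → HFD its counts ran from 426 to 629 with a median of 536. All 6 RC → HFD libraries lay below the lowest RC NoDS library. The log2 fold change was −1.24 (SE 0.188, edgeR adjusted p = 0.00154), close to that of Npy. In bulk tissue, fewer AgRP neurons in the punch and less RNA per neuron cannot be told apart.

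Trh (ENSMUSG00000005892, chr6:92192055-92194644, minus strand) encodes thyrotropin-releasing hormone, which drives the thyroid axis from the paraventricular nucleus and is also made by other hypothalamic neurons. Its counts were 543, 632, 464, 683 and 668 in RC NoDS, and ran from 999 to 2047 with a median of 1094 in RC → HFD. The groups did not overlap, and library 12 was far above the other RC → HFD libraries, the next of which had 1385 reads. The log2 fold change was 1.13 (SE 0.16, edgeR adjusted p = 7.2e-04).

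Rbm3 (ENSMUSG00000031167, chrX:7716101-7723006, minus strand) encodes an RNA-binding protein that is induced by mild cold. It had 837, 982, 1053, 990 and 912 reads in RC NoDS, and from 533 to 684 with a median of 596.5 in RC → HFD. Again no library of one group reached the range of the other. The log2 fold change was −0.62 (SE 0.102, edgeR adjusted p = 0.00433). The gene overlaps 2900002K06Rik on the opposite strand, and whether reads were counted by strand is not given in the sources used here. Cirbp, the other cold-inducible gene of this kind, averaged 1629 and 1419 reads and was not called (log2 fold change −0.17).

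Kif5a (ENSMUSG00000074657, chr10:126662755-126700136, minus strand) encodes a neuronal kinesin that carries neurofilaments along axons. Its counts were 21755, 25455, 28245, 23644 and 28748 in RC NoDS, and ran from 30455 to 38574 with a median of 32910 in RC → HFD. The groups were separate but close, and the change was small. The log2 fold change was 0.41 (SE 0.0854, edgeR adjusted p = 0.121). The call was lost under several other settings and when any of 10 single libraries was left out, the highest adjusted p being 0.655 without RC NoDS library 1.

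**Figure D1:**
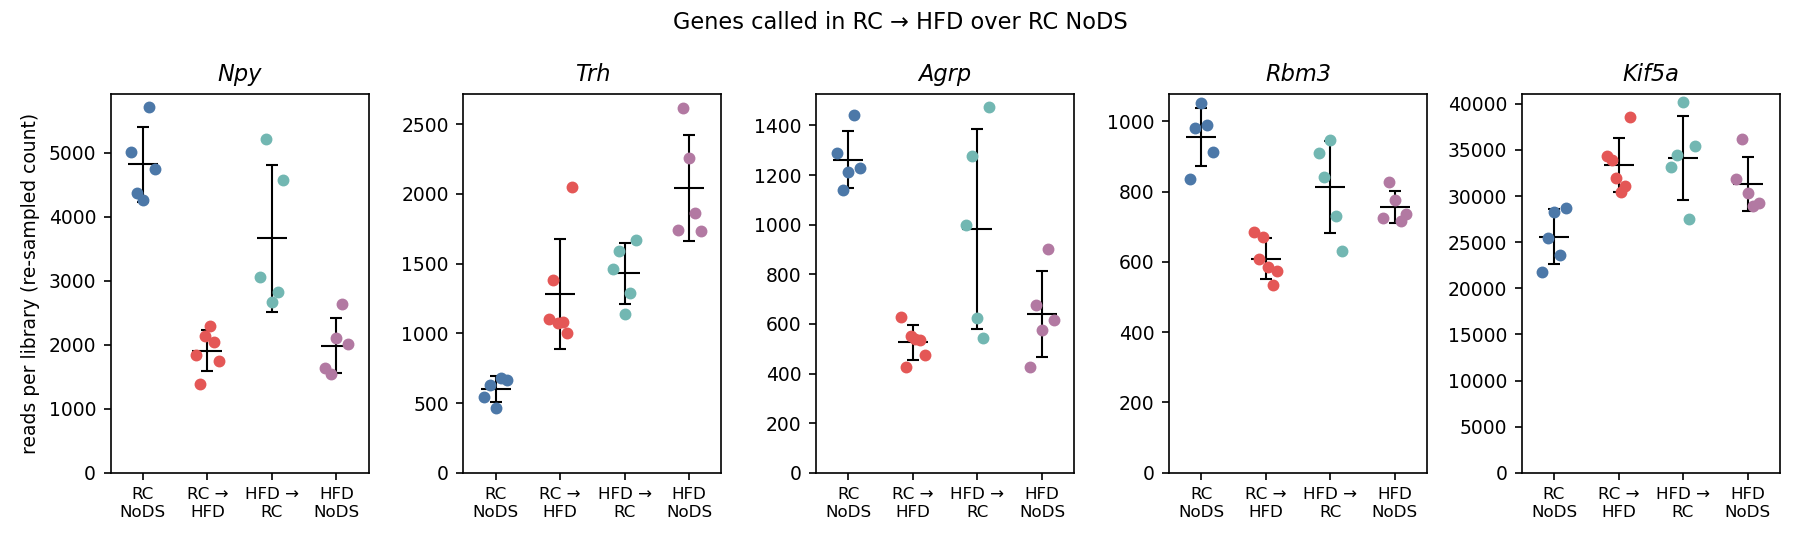
Counts of the 5 called genes (vertical axis, reads per library after re-sampling, starting at 0) in the 4 diet groups, with a point for each library and the mean ± SD as a black bar. In each panel the 6 RC → HFD libraries lie wholly above or below the 5 RC NoDS libraries, and for Npy the gap runs from 2295 to 4258 reads.

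When libraries 10, 11 and 12 were left out together, an alternative chosen after the data were seen, edgeR called 2 genes, Npy and Trh. Agrp and Rbm3 were then not called, with log2 fold changes of −1.22 (adjusted p = 0.26) and −0.53 (adjusted p = 0.884), and neither was Kif5a at 0.4 (adjusted p = 1). With all libraries the log2 fold changes were −1.24 for Agrp, −0.62 for Rbm3 and 0.41 for Kif5a. The groups of this fit held 5 and 3 libraries, and why the calls were lost was not tested. With the share of zero counts as a covariate, 4 of the 5 genes were called and Kif5a was not (adjusted p = 0.52).

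The number of called genes also varied with the tool. DESeq2 called 96 genes, but its independent filtering set a mean count of 3569 as the minimum and left 11882 genes with no adjusted p, among them Npy, Trh, Agrp and Rbm3. Of the 5 genes called by edgeR, it could therefore call only Kif5a. Without that filtering, an alternative added once this was seen, DESeq2 called 15 genes, and all 5 were among them, Npy with an adjusted p of 1.73e-08. An edgeR fit of only the 11 libraries compared called 24 genes, 13 higher and 11 lower, again with all 5 among them.

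The other diet step of the design, HFD NoDS over HFD → RC, also sets high-fat diet against chow in the last week, but in mice with chronic high-fat diet behind them. It shares no library with the step from chow. It had 9 called genes (0.0705%) and 7.93% of genes with an unadjusted p under 0.05, and Npy was the only gene called in both. Npy averaged 3669 ± 1149 reads in HFD → RC and 1987 ± 432.7 in HFD NoDS (SD, n = 5 each), with a log2 fold change of −0.89 (edgeR adjusted p = 0.0314). That call was lost with robust dispersion (adjusted p = 0.162), with only the libraries of the step, and without HFD → RC library 17 or HFD NoDS library 19, where edgeR called 2, 1, 1 and 2 genes. Agrp stood at −0.63 and Trh at 0.51, neither of them called (edgeR adjusted p = 0.481 for both).

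Rbm3 and Kif5a had small values in that step, with log2 fold changes of −0.11 and −0.13. The test of the difference between the steps called neither of them (edgeR adjusted p = 0.246 and 0.176), nor Npy, Agrp or Trh, so edgeR did not show any called gene to be particular to the step from chow. DESeq2 called the difference for Kif5a and Rbm3 (adjusted p = 0.0332 and 0.13) and limma-voom for Kif5a (adjusted p = 0.143). In edgeR another 4 genes (0.0313%) passed this test, in which 8.84% of genes had an unadjusted p under 0.05. RC → HFD over HFD NoDS, which compares 1 week with chronic high-fat diet, had 2 called genes (0.0157%, with 7.49% at an unadjusted p under 0.05), C4b, a complement component, and Col18a1, a basement membrane collagen. Both were lower in RC → HFD, and neither was called without libraries 10, 11 and 12. Across all 12768 genes the log2 fold changes of the steps had the same sign for 47.3% of genes, with a Pearson correlation of −0.219 and a Spearman correlation of −0.0949. Among the 831 genes with an unadjusted p under 0.05 in the step from chow, 35.5% had the same sign. Genes are not independent of each other, and these figures describe these libraries only.

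The gene lists below were written with earlier results of these data known. Their counts describe these libraries and are no test of the lists. Genes of AgRP neurons were lower as a group. All 7 listed genes passed the filter and had a negative log2 fold change, with a median of −0.81 beside −9e-04 over all genes tested. Of these, 5 had an unadjusted p under 0.05 (2.67% of all genes tested were lower at this level), and the libraries of 4 did not overlap (0.705% of all genes). Apart from Npy and Agrp, these were Ghsr, the ghrelin receptor, and Corin, a protease of these neurons. Ghsr had 300, 336, 323, 527 and 341 reads in RC NoDS and 139 to 272, with a median of 208.5, in RC → HFD, and was not called (log2 fold change −0.81, edgeR adjusted p = 0.408). The summed count of the 7 genes lay between 7871 and 9981 in RC NoDS and between 3477 and 4708 in RC → HFD, and Npy was the most abundant of them. Without libraries 10, 11 and 12 the median was −0.6. In the other diet step the median was 0.09.

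Genes of POMC neurons had no common direction. Of 6 genes, 3 were higher and 3 lower (median −0.07), and 2 of each had an unadjusted p under 0.05, beside 3.84% and 2.67% of all genes tested. Cartpt, which encodes a peptide that restrains feeding, had 3110, 2266, 2490, 3477 and 3486 reads in RC NoDS and 2943 to 4729 in RC → HFD. These ranges overlapped (log2 fold change 0.43, edgeR adjusted p = 0.538), as did those of Pomc (0.42, adjusted p = 0.695). Without libraries 10, 11 and 12 the log2 fold changes were 0.33 for Cartpt and 0.21 for Pomc, and the median of the list was −0.18. Of these genes only Cartpt was called by another tool, DESeq2 with its filtering (adjusted p = 0.0749), and not without that filtering (0.438). Isl1 and Tbx3, transcription factors of the arcuate nucleus, stood at −0.4 and −0.37 without being called.

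Among 16 feeding peptide receptors, 3 had an unadjusted p under 0.05, and all 3 were lower (2.67% of all genes tested were lower at this level). Of the 16, 9 were lower and 7 higher (median −0.09). Apart from Ghsr they were Npy2r, a presynaptic receptor for neuropeptide Y, and Lepr, the leptin receptor, with log2 fold changes of −0.31 and −0.59. In leptin and JAK-STAT signalling, 3 of 15 genes had such a p (6.51% of all genes tested), 1 higher and 2 lower. Socs3, an inhibitor of leptin signalling, had 145 to 241 reads in RC NoDS and 192 to 382 in RC → HFD (log2 fold change 0.47). Libraries 11 and 12 were the high ones, with 382 and 323 reads, and the other 4 had at most 210. Ptpn2, a phosphatase that acts on JAK kinases, stood at −0.51. Without libraries 10, 11 and 12 the log2 fold changes were 0.13 for Socs3 and −0.31 for Ptpn2, and the median of the receptors was 0.0013. Neither gene was called. Igf2 and Igfbp2 led the 4 of 22 insulin and IGF signalling genes with such a p in edgeR, at −1.06 and −1.13. All 4 were lower (2.67% of all genes tested). The number was 2 in DESeq2, 4 in limma-voom, 3 in limma-trend and 1 with robust dispersion, and Igf2 and Igfbp2 also belong to the leptomeningeal genes described below.

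In the thyroid axis, Trh was the only gene of 11 called in edgeR, and 7 of the 11 were lower (median −0.12). Dio2, which makes active thyroid hormone in tanycytes, and Crym, which binds that hormone, stood at −0.49 and −0.52 without being called. Of the 5 paraventricular genes that passed the filter, Trh included, 2 were higher and 3 lower (median −0.06). That median had no stable sign, at −0.27 without RC NoDS library 1 and at 0.03, 0.19 and 0.14 without RC NoDS 5, RC NoDS 6 or RC → HFD 8. Oxt and Avp had log2 fold changes of −0.09 and −0.06, and Otp, a transcription factor of that nucleus and of AgRP neurons, stood at −0.42. Without libraries 10, 11 and 12 the medians were −0.04 for the thyroid axis and −0.19 for the paraventricular genes. Over the other settings the thyroid median ran from −0.15 to 0.0042, so its sign was not stable either.

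All 11 tanycyte markers were lower (median −0.39), 8 of them with an unadjusted p under 0.05 (2.67% of all genes tested were lower at this level), though none was called by edgeR, limma-voom, limma-trend or DESeq2 without its filtering and the libraries of all 11 overlapped. Lhx2, a transcription factor of tanycytes, had 621, 440, 428, 680 and 645 reads in RC NoDS and 202 to 459, with a median of 383, in RC → HFD (log2 fold change −0.64, edgeR adjusted p = 0.574). Rax stood at −0.55 and Vim at −0.24. The median of the list was −0.37 without libraries 10, 11 and 12, and 0.27 in the other diet step. In the summed counts library 12 was the lowest, at 7096, and libraries 9, 10 and 11, with 11090, 11541 and 10366 reads, lay within the range of RC NoDS, 10077 to 14012.

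Neurofilament and axon genes had higher values. All 12 were above 0 (median 0.29), and 9 had an unadjusted p under 0.05, beside 3.84% of all genes tested. In edgeR Kif5a alone was called, as in limma-voom, while limma-trend called none of the 12 and DESeq2 with its filtering called Kif5a and Kif5c, another kinesin of this family. Nefm, a neurofilament subunit, was the other gene with separate groups (0.462% of all genes), averaging 1559 and 2071 reads (log2 fold change 0.44, edgeR adjusted p = 0.574). Nefl, Nefh and Ina stood at 0.34, 0.25 and 0.24. The summed count, in which Kif5a was the most abundant gene, lay between 46630 and 55473 in RC NoDS and between 59291 and 69841 in RC → HFD. The median was 0.26 without libraries 10, 11 and 12, and −0.18 in the other diet step.

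Listed ventromedial and lateral hypothalamic genes had log2 fold changes above 0 too, while paraventricular genes went both ways (2 higher, 3 lower). All 6 ventromedial genes were higher (median 0.29), 1 with an unadjusted p under 0.05 in edgeR (3.84% of all genes tested were higher at this level) and none in DESeq2 or with robust dispersion, and Nr5a1 had a log2 fold change of 0.54 (edgeR adjusted p = 0.701). Without libraries 10, 11 and 12 Nr5a1 stood at 0.31 and the median of the list was 0.22. The list median was −0.27 in the other diet step. Hcrt, which encodes orexin, had 75, 70, 94, 28 and 105 reads in RC NoDS and 58 to 355 with a median of 199.5 in RC → HFD, where libraries 10 and 11 were the low ones. Pmch, which encodes melanin-concentrating hormone, averaged 794.2 and 1454 reads. Neither was called (log2 fold changes 1.46 and 0.9, edgeR adjusted p = 0.685 and 0.701). The 3 lateral hypothalamic genes had a median of 0.9, and of 1.35 without libraries 10, 11 and 12. Leaving out single libraries moved it from 0.74 to 1.41. The 5 pituitary genes had a median of 0.95, which turned to −0.28 without library 12 alone and to −0.67 without all 3. The study omitted punches with too little Agrp and Pomc beside Hcrt. In these counts the mean of Agrp and Pomc was 42.1 to 170 times Hcrt in RC NoDS libraries. In RC → HFD libraries it was 12.9 to 102 times Hcrt. Since Agrp was itself a called gene, this ratio does not fix the position of a punch. The part of punch position in the result was not tested.

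**Figure D2:**
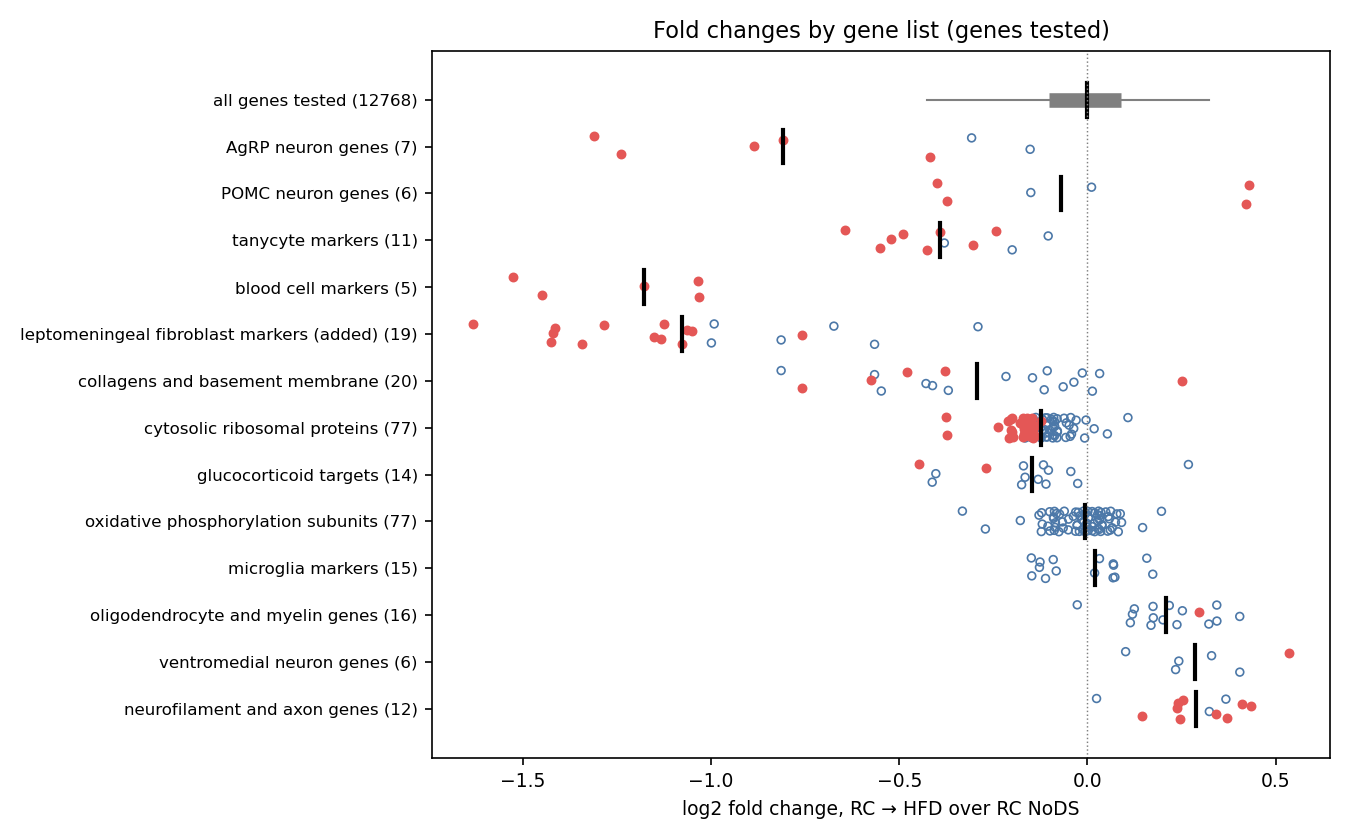
Log2 fold changes in RC → HFD over RC NoDS (horizontal axis) for the tested members of 13 gene lists, with the number tested in brackets. Filled points have an unadjusted p under 0.05, open points do not, black bars are list medians, and for all genes the thick bar spans the middle 50% and the thin line the middle 95%. The 7 AgRP neuron genes and 11 tanycyte markers lie below 0, and the 12 neurofilament and axon genes above it.

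Blood cell markers had lower values in RC → HFD. All 5 were lower with no overlap between groups (0.705% of all genes), with a median of −1.18. Hbb-b1 had 1799, 2490, 2249, 1986 and 1739 reads in RC NoDS and 589 to 1106 in RC → HFD (log2 fold change −1.18, edgeR adjusted p = 0.443). Globin genes are near-identical copies, so reads may be split between them with error, which was not tested. Alas2, a single-copy enzyme of haem synthesis in red cells, averaged 82.4 and 28 reads. It was not called (log2 fold change −1.53, edgeR adjusted p = 0.574). The summed count of the 5 genes lay between 3348 and 4547 in RC NoDS and between 1057 and 2122 in RC → HFD. The median was −0.92 without libraries 10, 11 and 12, and −0.26 in the other diet step.

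A list of 20 leptomeningeal fibroblast markers was added after the values had been seen, so its counts describe genes chosen with their values known and are no test of them. All 19 that passed the filter were lower (median −1.08), and 13 had an unadjusted p under 0.05 in edgeR. That number was 7 in DESeq2, 10 in limma-voom, 9 in limma-trend and 4 with robust dispersion in edgeR. Ptgds, the most abundant, averaged 28320 and 12770 reads. The groups overlapped widely, with summed counts of 13472, 35400, 50548, 16918 and 61599 in RC NoDS and 4008 to 30064 in RC → HFD. Collagens and basement membrane genes, which these cells also make, were lower in 17 of 20 (median −0.29), 4 of them with an unadjusted p under 0.05 (2.67% of all genes tested). Sparc, the most abundant gene of that list and the one with its smallest p, was higher instead, with means of 35660 and 41710 reads and overlapping groups (log2 fold change 0.25, edgeR adjusted p = 0.431). DESeq2 called it with its filtering (adjusted p = 0.0292) and not without (0.169). With Sparc included, the summed count of the list was not lower, at 44153 to 55327 in RC NoDS and 52057 to 59652 in RC → HFD. Without libraries 10, 11 and 12 the leptomeningeal median was −1.13, and in the other diet step it was 0.95. The median of collagens and basement membrane genes was 0.5 in that step. None of these genes was called in edgeR over all 21 libraries. With single libraries left out, the lowest edgeR adjusted p was 0.041 for Hbb-b1, 0.0717 for Hbb-b2 and 0.142 for Sparc, each a call. Hbb-b1, Hbb-b2 and Hba-a1 were among the 24 called with only the 11 libraries. The part of blood and meninges in the other results was not tested.

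**Figure D3:**
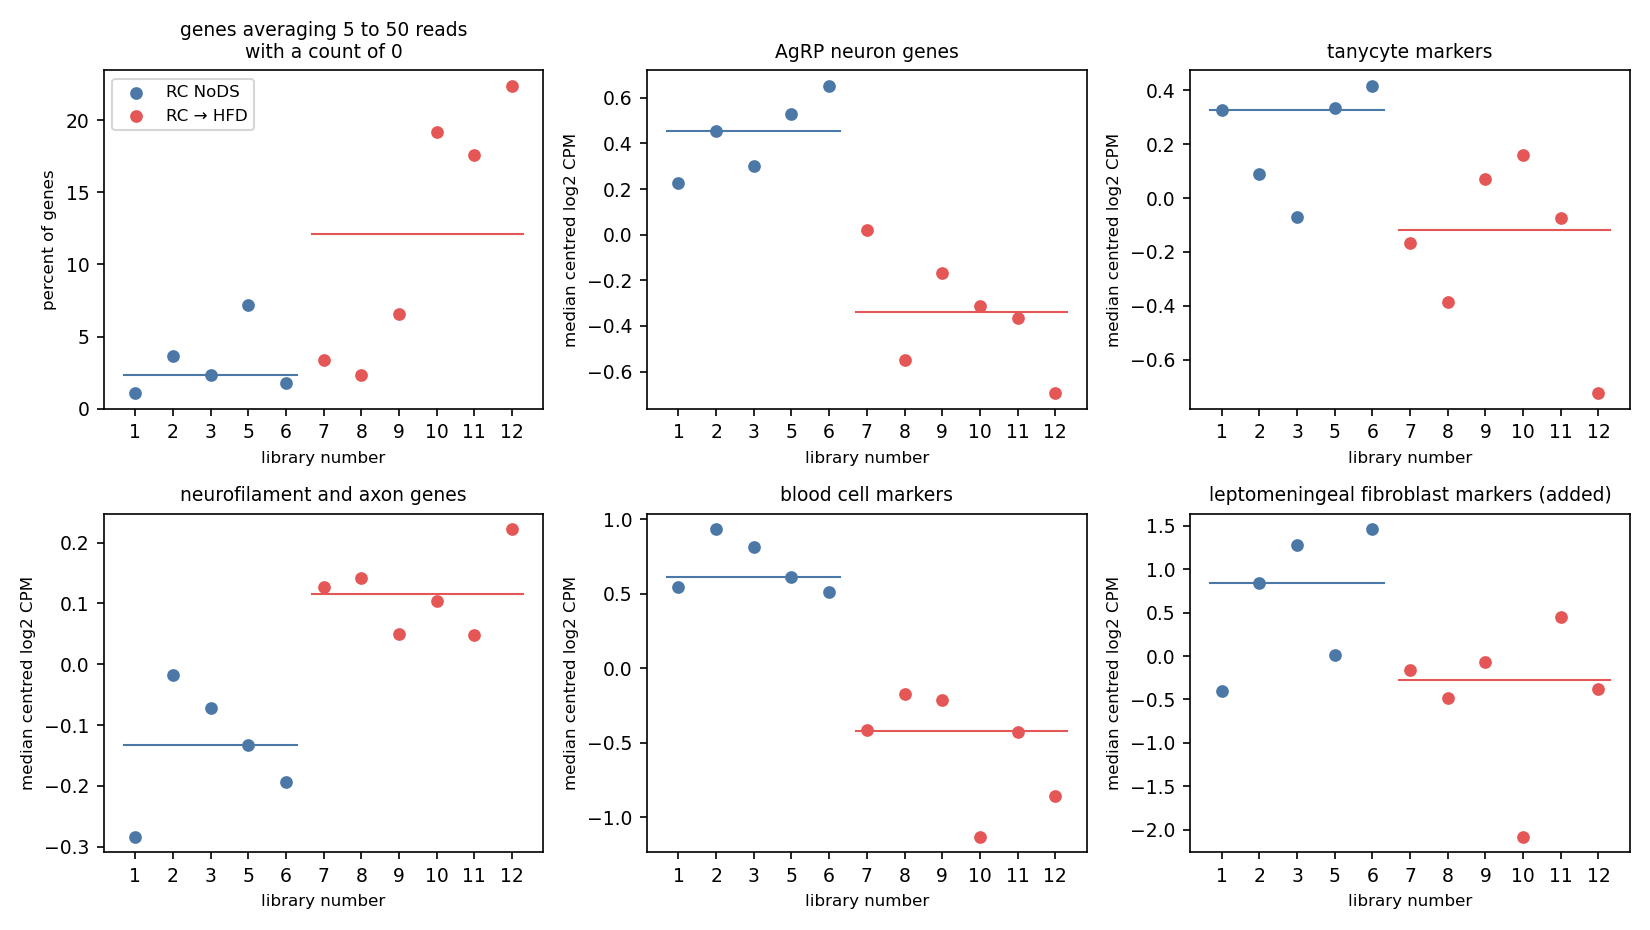
Values of each of the 11 libraries (horizontal axis, library number), with a line at each group's median. The first panel gives the percentage of zero counts among genes with means of 5 to 50 reads, and the others the median over a list of log2 CPM (each library's counts scaled to a common total), centred on each gene's mean over the 11 libraries. Groups are separate for AgRP neuron, axon and blood genes, and overlap for tanycyte and leptomeningeal genes.

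Cytosolic ribosomal protein genes were lower in 74 of 77 (median −0.12), with 28 at an unadjusted p under 0.05 (2.67% of all genes tested were lower at this level) and 5 without overlap (0.705% of all genes). The differences were small, as for Rpl30, with means of 2545 ± 146.7 and 2122 ± 107.1 reads (log2 fold change −0.24, edgeR adjusted p = 0.469). Ribosomal protein genes have many processed copies in the genome, and their counts are uncertain to that extent. Subunits of oxidative phosphorylation gave 0 of 77 with an unadjusted p under 0.05 in edgeR, DESeq2 and limma-voom and 2 in limma-trend, and had a median of −0.01. Glycolysis genes were higher in 15 of 16 (median 0.09), led by Eno2, the neuronal enolase, at 0.19. In edgeR no gene of these 3 lists was called, while DESeq2 with its filtering called 10 of 43 ribosomal protein genes and, as Eno2, 1 of 14 glycolysis genes that it gave an adjusted p, beside 96 of 886 genes in all. Without the filtering it called none of the 3 lists. Eno2 stood at 0.12 and the glycolysis median at 0.04 without libraries 10, 11 and 12. The ribosomal median was −0.14 without libraries 10, 11 and 12.

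Inflammatory lists had medians near 0, though single members went further, such as Ifit1 at −0.5 and Osmr at 1.25. Of 17 listed NF-kB and toll-like receptor genes, 7 did not pass the filter and were not tested. These were Ccl2, Icam1, Il1b, Il6, Tlr4, Tnf and Tnfaip3. No gene of 15 microglia markers, 10 NF-kB and toll-like receptor genes or 16 interferon-stimulated genes had an unadjusted p under 0.05 in edgeR, and 0 of them were called by edgeR, limma-voom, limma-trend or DESeq2 without its filtering (with it, none had an adjusted p). The only unadjusted p under 0.05 among them was for 1 interferon-stimulated gene with either limma method. Their medians were 0.02, −0.05 and −0.1, and −0.05, −0.11 and −0.12 without libraries 10, 11 and 12. The first turned negative when RC NoDS 1 or 2 or RC → HFD 9, 11 or 12 was left out singly (−0.04 to −0.01), and the second was 0.01 without RC NoDS 5. The third, with 13 of 16 genes lower, ran from −0.2 to −0.01 when single libraries were left out. In reactive gliosis 7 of 12 genes were higher and 5 lower (median 0.06, and −0.0046 without RC NoDS library 2). Of these, 3 higher genes and 1 lower gene had an unadjusted p under 0.05, beside 3.84% and 2.67% of all genes tested. Osmr, a receptor subunit for oncostatin M, had 30, 38, 29, 25 and 26 reads in RC NoDS and 56 to 85, with a median of 68, in RC → HFD. These groups were separate at low counts, and the gene was not called (log2 fold change 1.25, edgeR adjusted p = 0.443). Serpina3n, an acute-phase protease inhibitor of astrocytes, stood at 0.32 and Sbno2, a regulator of inflammatory transcription, at 0.22. Vim, the lower gene with such a p and also a tanycyte marker, stood at −0.24 and Gfap, an astrocyte filament, at −0.2, and the groups overlapped for all 4. Oligodendrocyte and myelin genes were higher in 15 of 16 (median 0.21, and −0.25 in the other diet step), 1 of them with an unadjusted p under 0.05. Among other cell types, 12 of 15 astrocyte, 13 of 16 endothelial and pericyte and 8 of 9 neuron markers were higher, with medians of 0.05, 0.08 and 0.1 and with 2, 2 and 3 genes at this level, all of them higher (3.84% of all genes tested). Those numbers were 2, 1 and 1 in limma-trend. With single libraries left out, the medians ran from 0.02 to 0.13 (astrocyte), 0.05 to 0.13 (endothelial and pericyte) and 0.06 to 0.13 (neuron). Ependymal and choroid plexus markers, 5 and 3 genes, had none at this level in edgeR, DESeq2, limma-voom or limma-trend. Another 8 of the 11 listed choroid plexus markers, Ttr and Cldn2 among them, did not pass the filter and were not tested.

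Glucocorticoid targets were lower in 13 of 14 (median −0.15), with Errfi1 and Mt2 at −0.45 and −0.27. Immediate early genes and heat shock chaperones, 14 each, had no gene with an unadjusted p under 0.05 in edgeR (medians −0.05, or 0.01 without RC NoDS library 5, and 0.07). None of them was called by edgeR, limma-voom, limma-trend or DESeq2 without its filtering, and DESeq2 and limma-trend gave 1 and 2 immediate early genes an unadjusted p under 0.05. Of 18 circadian clock genes, 3 had such a p in edgeR (6.51% of all genes tested), 4 in DESeq2 and 1 in limma-trend, with Tef, a clock-controlled transcription factor, at 0.14. Fatty acid oxidation had 1 of 16 genes at this level, cholesterol and fatty acid synthesis 1 of 25, the endoplasmic reticulum stress response 1 of 18, prohormone processing 1 of 12 and other hypothalamic neuropeptides 1 of 15. DESeq2 with its filtering called Tef, the astrocyte marker Clu and the prohormone processing gene Pcsk2, and without the filtering none of them.

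Among genes with separate groups that were not called, the smallest p belonged to Epb4.1l3, a membrane skeleton protein, on the higher side and to Frzb, a secreted inhibitor of Wnt signalling, on the lower. Epb4.1l3 had 3100, 3499, 3415, 3421 and 3437 reads in RC NoDS and 3914 to 4485 in RC → HFD (log2 fold change 0.28, edgeR adjusted p = 0.188). Frzb had 692, 755, 598, 780 and 791 reads and 288 to 544 (log2 fold change −0.7, edgeR adjusted p = 0.188). Both came near the threshold without passing it. The others were Sez6, Lrtm2, Nat8l and Osmr, which were higher, and Hbb-b2, 6330403K07Rik, Ghsr and Col24a1, which were lower. All 10 were called under some other setting. DESeq2 without its filtering called Epb4.1l3, Frzb, Sez6, Lrtm2, 6330403K07Rik, Ghsr and Col24a1, and with it Epb4.1l3, Nat8l and 6330403K07Rik. The edgeR fit of only the 11 libraries called Epb4.1l3, Frzb, Nat8l, Osmr, Hbb-b2, Ghsr and Col24a1. Without HFD NoDS library 20 edgeR called Epb4.1l3, Frzb, Osmr and Hbb-b2, without HFD → RC 13 Frzb and Hbb-b2, without HFD → RC 16 Hbb-b2, and without RC NoDS 3, RC → HFD 10 or HFD → RC 14 Frzb. Lrtm2, Ina, Lhx2, Pcsk2, Pmch, Nr5a1, Igf2, Errfi1, Tef and Pecam1 overlap an annotated gene on the opposite strand. Their counts carry the same doubt as that of Rbm3, while Rpl30 overlaps a small RNA gene on its own strand.

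Of the 5 called genes, 2 matched the RefSeq table of promoters (GRCm38.p6). The 250 bases before the start of these genes, Npy and Trh, are shown. Both kept their calls without libraries 10, 11 and 12, and they moved in opposite directions. A set of 4 motifs was searched on both strands. TTCNNNGAA is the palindrome bound by STAT factors. TGACGTCA is the cAMP response element, TGACCTCA resembles it, and GTAAACA is bound by forkhead factors. In this order, the motifs occur in 7.02%, 1.55%, 1.94% and 3.17% of 32851 promoter windows of this length. Capitals mark the only match, TGACCTCA, which begins 57 bases before the start of Trh. A match of letters is a description of the window and shows no binding.
Npy promoter (chr6:49822460-49822709, plus strand): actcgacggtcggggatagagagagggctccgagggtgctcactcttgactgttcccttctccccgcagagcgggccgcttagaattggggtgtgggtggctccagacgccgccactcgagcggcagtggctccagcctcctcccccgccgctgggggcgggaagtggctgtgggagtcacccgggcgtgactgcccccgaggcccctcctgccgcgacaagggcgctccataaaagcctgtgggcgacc
Trh promoter (chr6:92244651-92244900, minus strand): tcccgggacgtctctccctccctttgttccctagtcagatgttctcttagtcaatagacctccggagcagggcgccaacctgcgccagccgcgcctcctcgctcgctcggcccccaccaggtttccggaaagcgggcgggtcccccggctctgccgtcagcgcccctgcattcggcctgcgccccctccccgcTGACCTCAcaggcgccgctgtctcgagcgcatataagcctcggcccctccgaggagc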

How the data were processed

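Punches of 2 mice per library were sequenced as polyA RNA with a stranded kit. The authors aligned reads to mm9 with STAR 2.5.1b, with Picard 2.7.1 also named in the submitters' processing notes, used PORT to re-sample every library to equal depth, and deposited whole-number read counts for each gene. Counts were used as deposited, with 1 row per Ensembl identifier. All 21 libraries entered a single edgeR 4.0.16 quasi-likelihood fit (R 4.3.3) with TMM factors and a mean for each of the 4 groups, so that all libraries estimated the spread. Genes averaging at least 50 reads were tested, and p-values were adjusted over all of them (Benjamini-Hochberg), with a call at 0.15. The 25 replicate pairs of the 2 groups differed beyond sampling noise (chi-square per degree of freedom 6.89 to 26.1), and no library was merged or dropped. Error from counting reads covers sampling of reads only, so every test rests on the spread between libraries.

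The share of zero counts was tested by exact permutation, counting absolute differences in means at least as large as observed. Alternatives were DESeq2 1.42.0, limma 3.58.1 (voom, and trend on log2 of count + 1), no TMM, RLE, filters of 0 and 5 reads, only the libraries compared, robust dispersion, the zero share as covariate, reads summed by symbol, and each library left out in turn. Positions came from an annotation of NCBIM37. Scripts were tested on simulated data. The rest used matplotlib 3.10.9, scipy 1.17.1, pandas 2.3.3 and numpy 2.4.6 under Python 3.11.15.

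Genes named were those called, the 2 with the smallest p under 0.05 in each list, the 8 genes with RT-qPCR in the study, and in each direction the 5 genes with the smallest p among those not called and without overlap. Some genes beyond this rule were named after their values were seen. Members and lists were chosen with earlier results of these data known. RT-qPCR, blood and behaviour were not analysed here.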

Additional observations from a re-analysis of the deposited data

Results flagged for a closer look

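Counts of each named gene, and the share of zero counts, were checked for a library far from the rest of its group. Of 114 groups checked, 13 had such a library, where chance alone gives about 1 in 20. The genes share libraries and were chosen partly by their values, so that figure is only a rough reference. In RC → HFD, library 12 was the highest for Trh (2047 reads, the next 1385), Epb4.1l3 (4485, the next 3997), Sparc (47487, the next 41887), Olig2 (974, the next 747) and Agt (5553, the next 4894). Library 8 was the highest for Npvf (172, the next 121). In RC NoDS, library 1 was the lowest for Epb4.1l3 (3100, the next 3415) and Ina (2997, the next 3276), and library 2 for Mt2 (1614, the next 2288). Library 2 was the highest there for Npvf (133, the next 43), library 5 for Ghsr (527, the next 341), and library 6 for Vim (2207, the next 1791) and Pecam1 (391, the next 310). Trh kept its call without library 12.

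In edgeR, 4 genes passed the test of the difference between the responses to high-fat diet from chow and from chronic high-fat diet, close to the threshold of 0.15 (adjusted p = 0.145 for each). The number was 0 with RLE, 0 with a filter of 5 reads, 0 without RC → HFD libraries 10, 11 and 12, and 0 to 124 when single libraries were left out. The log2 fold change from chow minus that from chronic high-fat diet was −1.08 for Col18a1 (−0.38 and 0.7) and −0.95 for Slc12a7 (−0.31 and 0.63). It was 0.51 for Tppp (0.3 and −0.22) and 0.66 for Plcxd2 (0.32 and −0.34). None of the 4 was called in the step from chow alone, and the cause was not tested.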

How the results depend on the processing

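Npy and Trh were called in every setting that gave them an adjusted p, with log2 fold changes from −1.42 to −1.31 and from 0.94 to 1.13 over the settings. Agrp and Rbm3 lost their calls only without RC → HFD libraries 10, 11 and 12, which was chosen after seeing the data, as was DESeq2 without independent filtering. Kif5a lost its call with limma-trend (adjusted p = 0.153), robust dispersion (0.19), the zero share as covariate (0.52) and without those 3 libraries (1). It also lost it without RC NoDS library 1, 2 or 5, RC → HFD 7, 8 or 12, HFD → RC 14 or 17, or HFD NoDS 19 or 21 (adjusted p = 0.155 to 0.655). No named gene that was called changed direction.

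For RC → HFD over RC NoDS, with 5 genes called, DESeq2 called 96, DESeq2 without its filtering 15, the fit of only the libraries compared 24, and that without the 3 libraries 2. Leaving out single libraries gave 4 to 11, with 9 without RC NoDS 3, 8 without HFD → RC 13 or 16, and 11 without HFD NoDS 20. For HFD NoDS over HFD → RC, with 9, both DESeq2 runs called 44, no filter 5, a filter of 5 reads 4, only the libraries compared 1, robust dispersion 2 and the covariate 15, and single libraries gave 1 to 13. For the difference between the steps, with 4, both DESeq2 runs called 116, limma-voom 15, limma-trend 2, no TMM 2, RLE 0, a filter of 5 reads 0, the covariate 33 and the fit without the 3 libraries 0. Single libraries gave 0 to 124 there, the highest without HFD NoDS 20, and 1129 genes had an unadjusted p under 0.05 in edgeR. For RC → HFD over HFD NoDS, with 2, both DESeq2 runs called 32, no filter 5, a filter of 5 reads 1, only the libraries compared 4, the covariate 1 and the fit without the 3 libraries 0, and 956 had an unadjusted p under 0.05. Single libraries gave 1 to 31, the highest without HFD NoDS 19. The counts of all 4 comparisons thus depend on single libraries, and the cause was not tested.

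The difference in zero share was 6.59 to 10.6 percentage points when single libraries were left out, 13 for genes averaging 5 to 20 reads and 2.12 for 20 to 50, with an exact permutation p of 0.0397 without RC → HFD 8. No paired analysis was possible because every replicate number belongs to a single library. Totals per library were nearly equal but shares of zero counts differed, and how far depth limits genes of low count was not tested.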
